A study of Mus musculus with 16 samples.

Results

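A set of 10 genes of airway mucus and mucosal defence were followed through bleomycin injury and adenoviral gene delivery in mouse lung: the gel-forming mucins Muc5b and Muc5ac, the mucus protein Fcgbp, the BPI-fold proteins Bpifa1 and Bpifb1, the antimicrobial proteins Reg3g, Ltf and Slpi, the acute-phase protein Saa3 and the antibody transporter Pigr. They were chosen by symbol as a group of related function, and all 10 were found among the 53647 identifiers of the expression table. RNA of whole lung was sequenced in 16 libraries, 4 in each of 4 groups. The groups were control, bleomycin, bleomycin with Ad-GFP (an adenovirus that carries the green fluorescent protein, called Ad-GFP here) and bleomycin with Ad-ATP12A (an adenovirus named for the proton pump subunit ATP12A, called Ad-ATP12A here), so all groups but the control had received bleomycin, which damages DNA and is widely given to mice to bring on lung scarring. Each group held 2 libraries in batch 1 and 2 in batch 2, and b1r2, for example, is replicate 2 of batch 1. The labels used here give no strain, age, sex, dose, day, promoter of the vectors or species of the ATP12A insert, and do not say that replicates are separate animals, so p-values measure the spread between libraries. Whether the control and bleomycin groups received a vehicle is not given either.

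The airway surface is covered by a mucus gel that traps particles and is moved out of the lung by beating cilia. MUC5B and MUC5AC are its gel-forming polymers, secreted by club and goblet cells. MUC5AC is known for its rise in allergic and injured airways, and Muc5b is the mucin needed for clearance in healthy mouse airways. The same secretory cells release proteins that bind, starve or kill microbes and restrain proteases, and they carry IgA from the tissue to the lumen. Several of these genes are known targets of epithelial IL-1, IL-17, IL-22 and STAT3 signalling, and mucins are known targets of IL-13.

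The sequences just before the start site of 4 genes are shown because these genes were the members with the smallest p-values against control in the Ad-ATP12A group. They are the 250 bases upstream of the start in RefSeq on GRCm38.p6, read 5′ to 3′ on the strand of the gene. That build differs from the GRCm39 build of the expression values, and positions are given for the sequences only. RefSeq's table as used here held a promoter for 8 of the 10 genes. Capitals mark matches to any of 3 motifs, which were chosen after the values had been seen and were searched on both strands: the NF-kB consensus, TTGCNCAA (C/EBP type) and TTCNNNGAA (STAT type).
Reg3g (chr6:78468875-78469124, - strand): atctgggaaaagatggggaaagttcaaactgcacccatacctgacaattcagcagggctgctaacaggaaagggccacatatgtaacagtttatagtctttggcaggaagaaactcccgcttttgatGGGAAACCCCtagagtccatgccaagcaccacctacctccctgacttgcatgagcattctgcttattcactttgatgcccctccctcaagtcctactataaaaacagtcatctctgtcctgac
Ltf (chr9:111019042-111019291, + strand): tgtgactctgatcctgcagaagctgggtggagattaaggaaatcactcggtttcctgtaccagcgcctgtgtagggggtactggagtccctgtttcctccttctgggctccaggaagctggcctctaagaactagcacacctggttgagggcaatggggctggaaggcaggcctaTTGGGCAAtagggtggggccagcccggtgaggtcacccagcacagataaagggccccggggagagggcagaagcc
Slpi (chr2:164356508-164356757, - strand): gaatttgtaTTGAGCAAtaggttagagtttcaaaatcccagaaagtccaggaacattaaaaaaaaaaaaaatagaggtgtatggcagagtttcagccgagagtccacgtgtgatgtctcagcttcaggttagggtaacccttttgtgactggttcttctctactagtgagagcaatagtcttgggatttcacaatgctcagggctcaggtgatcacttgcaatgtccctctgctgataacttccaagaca
Saa3 (chr7:46715677-46715926, - strand): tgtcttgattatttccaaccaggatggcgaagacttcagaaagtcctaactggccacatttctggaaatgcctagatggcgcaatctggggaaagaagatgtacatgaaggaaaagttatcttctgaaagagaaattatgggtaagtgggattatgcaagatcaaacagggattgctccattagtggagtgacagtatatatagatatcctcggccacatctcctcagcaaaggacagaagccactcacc
The Reg3g sequence held 1 match to the NF-kB consensus, from 123 to 114 bases upstream, and 7.25% of 32851 upstream windows of the same length held that motif. The C/EBP type motif, present in 2.61% of windows, lay from 75 to 68 bases upstream of Ltf and from 241 to 234 bases upstream of Slpi. None of the 3 motifs was found in the Saa3 window. Of the other 4 genes with a promoter, Bpifb1, for which the table holds more than one start, had a match to the STAT type motif (7.02% of windows) upstream of one start and to the NF-kB consensus upstream of another. A match describes letters and not a bound site.

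Values are TPM, the abundance of a transcript scaled to its length and to a common library total, so levels can be set side by side between genes of a library. Between libraries they are shares of that total, and Scgb1a1 alone ran from 127.72 to 122337.46 TPM. The TPM of the columns summed to between 999999.12 and 1000000.82. Read depth is unknown, and no counting interval can be given. Mouse Atp12a lay between 0 and 0.2 TPM in the 12 libraries without Ad-ATP12A and between 2.96 and 29.02 TPM in the 4 with it. Its mean in the Ad-ATP12A group was 4.045 TPM in batch 1 and 27.36 TPM in batch 2. The club cell marker Scgb1a1 stood under 1000 TPM in 3 libraries, Control b2r1 (441.01), Bleomycin b2r2 (127.72) and Ad-GFP b1r1 (295.36), and at 24870.14 TPM or more in all others, while the mean log2(TPM + 1) of 6 ciliated cell genes in those 3 libraries was 6.32, 5.67 and 6.80. Genes of large airway cartilage summed to between 0.32 and 2.17 TPM in all 16 libraries. Xist, transcribed from an inactive X chromosome, was at 74.42 TPM or more in 6 libraries and at 0.49 TPM or less in 10. In 5 members, 3 libraries stood apart from the other 13: Ad-GFP b1r1, Ad-ATP12A b1r1 and Ad-ATP12A b1r2. Calls of genes named below that were lost without these 3 libraries are given with the value without them.

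**Figure D1:**
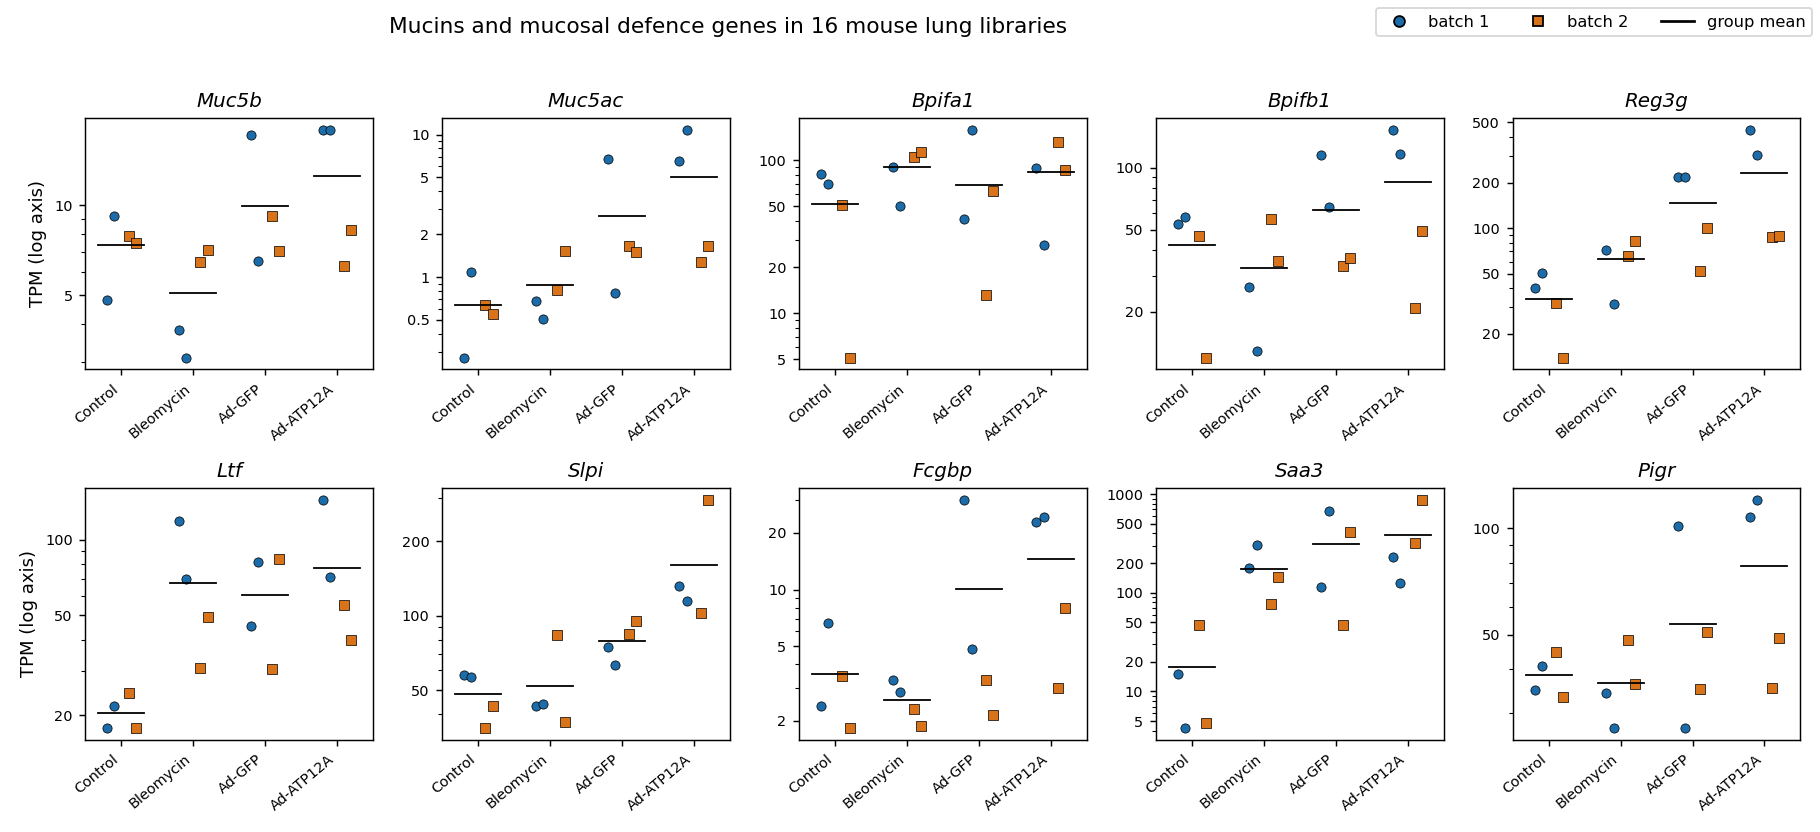
TPM of the 10 genes (log axis, scale set per gene) in each library by group; circles are batch 1, squares batch 2 and horizontal bars the mean of 4 libraries. Saa3, Ltf and Reg3g rise from the control group, Slpi is highest in the Ad-ATP12A group, and Muc5b, Muc5ac, Fcgbp, Bpifb1 and Pigr each have 3 high batch 1 libraries of the vector groups.

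Against control, Saa3 and Ltf rose in all 3 bleomycin groups, Reg3g rose in both vector groups, and Slpi, Muc5ac and Fcgbp rose in the Ad-ATP12A group. Differences are given as log2 fold changes of TPM + 1 from limma, a linear model fitted to all 16 libraries and 17003 genes with batch as a term, and a gene is said to rise or fall when its Benjamini-Hochberg adjusted p lies under 0.05. In bleomycin against control 2 of the 10 genes rose and none fell, beside 18.8% of all genes called in either direction and 13.2% called higher. In Ad-GFP against control 3 rose and none fell, beside 13.7% called in either direction and 9.16% higher. In Ad-ATP12A against control 6 rose and none fell, beside 22.8% called in either direction and 13.3% higher. The median log2 fold change of the 10 genes in these comparisons was 0.13, 0.73 and 1.54, and the median of all genes was 0.047, 0.027 and 0.0047. The 3 comparisons share the 4 control libraries. In whole lung RNA, more cells of a type and more RNA per cell cannot be told apart.

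**Figure D2:**
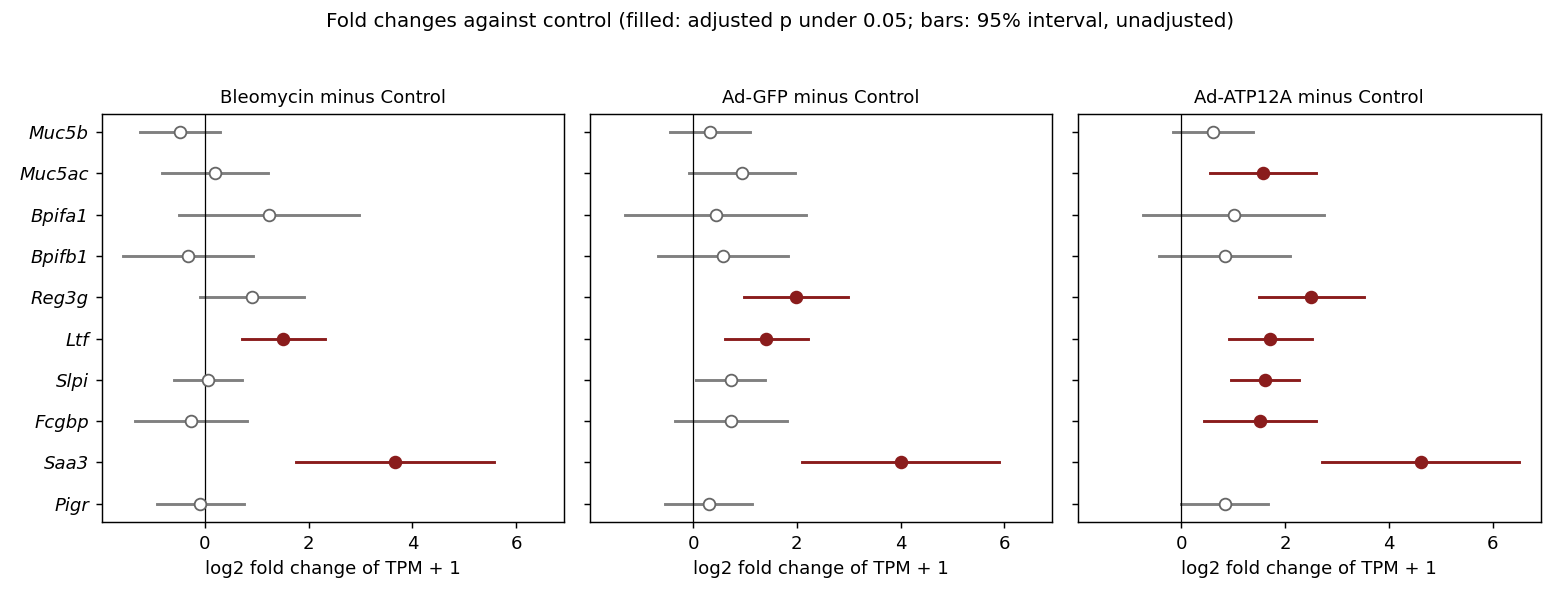
Log2 fold change of TPM + 1 against control for the 10 genes in the 3 bleomycin groups, with unadjusted 95% intervals; filled points have an adjusted p under 0.05. Filled points number 2 for bleomycin, 3 for Ad-GFP and 6 for Ad-ATP12A, all to the right of 0.

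Muc5b, the constitutive gel-forming mucin, was measured in all 16 libraries and passed the test in no comparison fitted. Its TPM was 4.82, 9.18, 7.86 and 7.47 in the controls (in the order b1r1, b1r2, b2r1, b2r2, kept below) and 3.82, 3.09, 6.44 and 7.08 after bleomycin. Muc5b stood at 17.07, 6.50, 9.20 and 7.03 TPM with Ad-GFP and, in the Ad-ATP12A libraries, at 17.84, 17.75, 6.28 and 8.23. All 4 groups overlapped, with 3 batch 1 libraries of the vector groups at nearly the same high level and the rest at or under 9.20 TPM. The group means of Muc5b, from low to high, were 5.11 ± 1.95 TPM in bleomycin, 7.33 ± 1.83 in control, 9.95 ± 4.89 in Ad-GFP and 12.5 ± 6.14 in Ad-ATP12A (SD, n = 4 each). No pair of neighbours in this order passed the test, and the pair at its ends, Ad-ATP12A against bleomycin, was not fitted. The log2 fold changes of Muc5b against control were -0.48 ± 0.36 (SE, adjusted p = 0.375), 0.33 ± 0.36 (adjusted p = 0.571) and 0.60 ± 0.36 (adjusted p = 0.237) in the order bleomycin, Ad-GFP, Ad-ATP12A. Without the 3 high libraries the Ad-ATP12A value was -0.21 (adjusted p = 0.555), and with the mean of the ciliated cell genes as a covariate it was 0.91 (adjusted p = 0.0403).

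Muc5ac, the inducible gel-forming mucin and the chromosomal neighbour of Muc5b, was scarce, with at least 1 TPM in 9 of 16 libraries, 7 of them from vector groups. Its TPM was 0.27, 1.09, 0.64 and 0.55 in the controls and 0.68, 0.51, 0.81 and 1.53 after bleomycin. Muc5ac stood at 6.77, 0.77, 1.65 and 1.49 TPM with Ad-GFP and, in the Ad-ATP12A libraries, at 6.49, 10.83, 1.27 and 1.66. The 4 Ad-ATP12A libraries lay above all controls, the 2 of batch 2 by a small margin, while the bleomycin and Ad-GFP groups overlapped with control. Muc5ac rose by a log2 fold change of 1.58 ± 0.48 (SE, adjusted p = 0.0301) in Ad-ATP12A against control, a value that understates the change because the gene is low against the added 1 TPM. The within-batch differences were 2.53 in batch 1 and 0.62 in batch 2. Without the 3 high libraries the log2 fold change was 0.47 (adjusted p = 0.185), and with a term for Xist-expressing libraries, of which the 3 high libraries are members, the adjusted p was 0.0665. The call was also lost with no filter on low values (adjusted p = 0.0708) and without any one of Control b1r1, Control b1r2, Ad-ATP12A b1r1 and Ad-ATP12A b1r2 (adjusted p from 0.0583 to 0.0847). In Ad-GFP and bleomycin against control Muc5ac had log2 fold changes of 0.94 ± 0.48 (adjusted p = 0.2) and 0.20 ± 0.48 (adjusted p = 0.809). With the mean of the ciliated cell genes as a covariate the Ad-GFP value was called (1.35, adjusted p = 0.0312).

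Fcgbp, a mucus protein built of von Willebrand type domains that is secreted with the mucins, had the same 3 high libraries. Its TPM was 2.39, 6.62, 3.45 and 1.83 in the controls and 3.30, 2.85, 2.31 and 1.88 after bleomycin. Fcgbp stood at 30.03, 4.81, 3.31 and 2.15 TPM with Ad-GFP and, in the Ad-ATP12A libraries, at 22.78, 24.16, 2.98 and 7.96. Outside the 3 high libraries no value passed 7.96 TPM, and every group overlapped with control. Fcgbp rose by a log2 fold change of 1.51 ± 0.50 (SE, adjusted p = 0.0445) in Ad-ATP12A against control, with within-batch differences of 2.27 and 0.75. That call was lost without the 3 high libraries (0.75, adjusted p = 0.16), with the Xist term (adjusted p = 0.106), without a batch term (adjusted p = 0.126) and with no filter on low values (adjusted p = 0.101). It was also lost when any 1 of 10 libraries was left out, namely b1r1, b1r2 and b2r2 of the control, bleomycin and Ad-ATP12A groups and b2r1 of Ad-GFP (adjusted p from 0.0517 to 0.131). In bleomycin and in Ad-GFP against control the log2 fold changes of Fcgbp were -0.26 ± 0.50 (adjusted p = 0.753) and 0.73 ± 0.50 (adjusted p = 0.348).

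Bpifa1, an airway surfactant-like protein that binds bacterial lipids and limits sodium uptake, varied more within groups than between them. It was at 81.52, 69.95, 50.84 and 5.09 TPM in the controls and at 90.83, 50.59, 105.48 and 112.69 after bleomycin. Bpifa1 stood at 41.32, 158.72, 13.25 and 62.89 TPM with Ad-GFP and, in the Ad-ATP12A libraries, at 88.91, 27.81, 132.72 and 85.99. Control b2r2 was the lowest of all libraries, and all groups overlapped. Bpifa1 passed the test in no comparison fitted, with log2 fold changes against control of 1.24, 0.43 and 1.01, each with an SE of 0.81 (adjusted p = 0.303, 0.755 and 0.389). The batches gave different values: in Ad-ATP12A against control the within-batch difference was -0.59 in batch 1 and 2.60 in batch 2, and the interaction was 3.19 ± 1.41 (unadjusted p = 0.0452, adjusted p = 0.177).

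Bpifb1, a larger relative of Bpifa1 encoded in the same gene cluster, shared the 3 high libraries with the mucins. Its TPM was 53.56, 57.64, 46.45 and 11.95 in the controls and 26.49, 12.98, 56.19 and 35.12 after bleomycin. Bpifb1 stood at 114.75, 64.11, 33.38 and 36.60 TPM with Ad-GFP and, in the Ad-ATP12A libraries, at 152.83, 116.03, 20.84 and 49.50. Control b2r2 was again low, and all groups overlapped. The log2 fold changes of Bpifb1 against control were -0.33, 0.58 and 0.83, each with an SE of 0.59 (adjusted p = 0.733, 0.54 and 0.32), and the last was -0.07 without the 3 high libraries. In bleomycin against control Bpifb1 differed by -1.53 within batch 1 and by 0.87 within batch 2, an interaction of 2.40 ± 0.82 (unadjusted p = 0.0137, adjusted p = 0.158). Fitted to batch 1 alone, the bleomycin value of Bpifb1 was called lower (-1.53, adjusted p = 0.0286), and in batch 2 alone it was not called (0.87, adjusted p = 0.506). Of 9 further BPI-fold genes 6 stayed under 0.5 TPM everywhere, namely Bpifb2, Bpi, Bpifb9b, Bpifb9a, Bpifb3 and Bpifb4. Of the 3 tested, Bpifb5 fell in bleomycin (-0.84, adjusted p = 0.0454) and in Ad-ATP12A (-1.12, adjusted p = 0.0114), and Lbp, the plasma lipopolysaccharide-binding protein, rose in Ad-ATP12A (0.52, adjusted p = 0.0191).

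Reg3g, a secreted lectin that kills Gram-positive bacteria, rose in both vector groups. Its TPM was 40.03, 50.70, 32.17 and 13.81 in the controls and 71.83, 31.45, 65.12 and 82.28 after bleomycin. Reg3g stood at 216.67, 218.42, 51.61 and 100.37 TPM with Ad-GFP and, in the Ad-ATP12A libraries, at 447.97, 305.36, 87.92 and 88.44. Every vector library lay above every control, Ad-GFP b2r1 by a small margin and the batch 1 vector libraries far above, and the bleomycin group overlapped with control. Of the 10 genes, those whose libraries did not overlap with control and were higher were Ltf and Saa3 in bleomycin (16.5% of all genes), Reg3g, Ltf and Slpi in Ad-GFP (10.8%), and Muc5ac, Reg3g, Ltf, Slpi and Saa3 in Ad-ATP12A (14%). The means of Reg3g were 34.2 ± 15.6 TPM in control, 62.7 ± 22.0 in bleomycin, 147 ± 84.1 in Ad-GFP and 232 ± 176 in Ad-ATP12A (SD, n = 4 each). The log2 fold changes of Reg3g against control were 0.91 ± 0.47 in bleomycin (adjusted p = 0.19), 1.98 ± 0.47 in Ad-GFP (adjusted p = 0.0156) and 2.51 ± 0.47 in Ad-ATP12A (adjusted p = 0.00307). The Ad-GFP call was lost without Ad-GFP b1r2 (adjusted p = 0.0575) or without Ad-GFP b2r2 (adjusted p = 0.0512), and bleomycin against control was called without Bleomycin b1r2 (1.42, adjusted p = 0.0378). Without the 3 libraries named above Reg3g still passed, at 1.82 in Ad-GFP and 1.76 in Ad-ATP12A (adjusted p = 0.0259 and 0.0379). Its relatives Reg3a and Reg3b stayed under 0.5 TPM in every library, and how the quantification divided any shared reads is not known here.

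Ltf encodes lactoferrin, the iron-binding protein of secretions that is also stored in neutrophil granules, and it rose in all 3 bleomycin groups. Its TPM was 17.81, 21.73, 24.68 and 17.84 in the controls and 118.39, 70.04, 30.98 and 49.27 after bleomycin. Ltf stood at 45.30, 81.61, 30.71 and 83.55 TPM with Ad-GFP and, in the Ad-ATP12A libraries, at 144.25, 70.90, 55.11 and 39.93. All 12 libraries with bleomycin lay above all 4 controls, and the 3 bleomycin groups overlapped with each other. Ltf had log2 fold changes of 1.51 ± 0.37 in bleomycin (adjusted p = 0.0141), 1.41 ± 0.37 in Ad-GFP (adjusted p = 0.0247) and 1.71 ± 0.37 in Ad-ATP12A (adjusted p = 0.00642). The within-batch differences in these comparisons were 2.16 and 0.87, 1.58 and 1.24, and 2.31 and 1.12, batch 1 first. The bleomycin call was lost without Bleomycin b1r1 (adjusted p = 0.0574), and the Ad-GFP call without any one of Control b1r1, Control b1r2, Ad-GFP b1r2 and Ad-GFP b2r2 (adjusted p from 0.0721 to 0.0869), without a batch term (adjusted p = 0.0512) and with no filter (adjusted p = 0.0592). Of 11 neutrophil genes 8 were tested, none was called higher in any group, and Camp, another granule gene, fell in Ad-GFP (-1.15, adjusted p = 0.029) and in Ad-ATP12A (-1.0, adjusted p = 0.0365). Both Camp calls were lost without the 3 libraries named above (adjusted p = 0.0594 and 0.171). Mmp8, also among the 8 and not called, lay higher after bleomycin, at 6.74 to 11.9 TPM against 1.8 to 4.18 in control. It was at 1.55 to 9.59 TPM in Ad-GFP and 2.76 to 16.86 in Ad-ATP12A. Of the 8, those with a log2 fold change above 0 numbered 1 in bleomycin, 1 in Ad-GFP and 2 in Ad-ATP12A. The summed TPM of the 11 ranged from 201.3 to 745.48 in control, 155.49 to 673.36 in bleomycin, 176.9 to 264.81 in Ad-GFP and 142.27 to 534.38 in Ad-ATP12A.

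Slpi, the secretory leukocyte protease inhibitor, which blocks neutrophil elastase, rose in the Ad-ATP12A group. Its TPM was 57.64, 56.30, 35.08 and 43.04 in the controls and 43.15, 43.95, 83.20 and 37.22 after bleomycin. Slpi stood at 74.31, 63.38, 83.87 and 95.21 TPM with Ad-GFP and, in the Ad-ATP12A libraries, at 131.99, 114.30, 102.79 and 294.00. The 4 Ad-ATP12A libraries were the 4 highest of all 16, the Ad-GFP libraries lay above all controls, and bleomycin overlapped with control. The means of Slpi were 48.0 ± 10.9 TPM in control, 51.9 ± 21.1 in bleomycin, 79.2 ± 13.6 in Ad-GFP and 161 ± 89.6 in Ad-ATP12A (SD, n = 4 each). Against control, Slpi had log2 fold changes of 0.06 ± 0.31 in bleomycin (adjusted p = 0.909), 0.72 ± 0.31 in Ad-GFP (adjusted p = 0.132) and 1.61 ± 0.31 in Ad-ATP12A (adjusted p = 0.00334). The Ad-ATP12A value for Slpi was called without each single library (1.28 to 1.83) and without the 3 libraries named above (1.84, adjusted p = 0.01). Of 11 listed further secreted antimicrobial genes 5 were tested. Lcn2, which withholds iron from bacteria, rose in bleomycin, Ad-GFP and Ad-ATP12A (1.43, 1.13 and 1.14, adjusted p = 0.0121, 0.0418 and 0.0288), and the lysozyme gene Lyz1 fell in Ad-ATP12A (-3.06, adjusted p = 0.0276). Lcn2 was not called in the vector groups without the 3 libraries (adjusted p = 0.0758 in Ad-GFP and 0.174 in Ad-ATP12A).

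Saa3, a serum amyloid A protein made locally in inflamed tissue, had the largest log2 fold changes of the 10 genes in each comparison with control. Its TPM was 14.86, 4.24, 47.56 and 4.76 in the controls and 176.43, 302.91, 77.13 and 144.08 after bleomycin. Saa3 stood at 113.22, 673.53, 46.71 and 413.93 TPM with Ad-GFP and, in the Ad-ATP12A libraries, at 233.09, 124.74, 322.53 and 878.39. Control b2r1 stood above the other controls and just above the lowest Ad-GFP library, while the bleomycin and Ad-ATP12A groups did not overlap with control. Saa3 had log2 fold changes of 3.67 ± 0.89 in bleomycin (adjusted p = 0.0129), 4.0 ± 0.89 in Ad-GFP (adjusted p = 0.0116) and 4.61 ± 0.89 in Ad-ATP12A (adjusted p = 0.00343). They were called without each single library, and the Ad-GFP call was lost when only the 8 libraries compared were fitted (adjusted p = 0.0539). Of 7 further acute-phase genes 5 were tested, and 3 rose in bleomycin, 2 in Ad-GFP and 3 in Ad-ATP12A. Lrg1 rose by 1.76, 1.42 and 1.5 (adjusted p = 0.0029, 0.0122 and 0.0056), and Orm1 by 1.65, 1.75 and 2.11 (adjusted p = 0.0416, 0.0404 and 0.0125). The mean of Lrg1 was 107.97 TPM in control and 155.68 in Ad-ATP12A in batch 1, and 37.47 and 203.86 in batch 2. In Ad-ATP12A against control the interaction with batch was called for 1 of the 5 genes tested, beside 2.8% of all genes. Saa1, which encodes a circulating relative, stayed between 0 and 4.03 TPM and had log2 fold changes of 1.12, 1.04 and 1.07 (adjusted p = 0.0995, 0.14 and 0.103).

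Pigr, the receptor that carries dimeric IgA across the epithelium, passed the test in no comparison fitted. Its TPM was 34.83, 40.68, 44.69 and 33.27 in the controls and 34.12, 27.18, 48.42 and 36.24 after bleomycin. Pigr stood at 101.55, 27.28, 35.13 and 51.02 TPM with Ad-GFP and, in the Ad-ATP12A libraries, at 107.68, 120.50, 35.38 and 48.98. Apart from the 3 high libraries, which exceeded 100 TPM, no library passed 51.02 TPM, and all groups overlapped. The log2 fold changes of Pigr were -0.09, 0.31 and 0.84, each with an SE of 0.39 (adjusted p = 0.899, 0.638 and 0.133), and the last was -0.04 without the 3 high libraries and 1.20 with the ciliated cell covariate (adjusted p = 0.0157). Of 6 genes of IgA and plasma cells, all tested, none was called in bleomycin or Ad-ATP12A, and 1, the cytokine gene Tnfsf13, rose in Ad-GFP (0.41, adjusted p = 0.0488; 0.42, adjusted p = 0.0731 without the 3 high libraries).

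Between bleomycin groups, no member passed the test in the comparisons fitted, Ad-GFP against bleomycin and Ad-ATP12A against Ad-GFP. Ad-ATP12A against bleomycin was not fitted. Ad-GFP and bleomycin differ in the vector, and 0 of the 10 genes were called, beside 0.0118% of all genes. Reg3g (1.07 ± 0.47, unadjusted p = 0.0389) and Muc5b (0.81 ± 0.36, unadjusted p = 0.0411) had an unadjusted p under 0.05 in that comparison, and the adjusted p was 1 for both after rounding. Ad-ATP12A and Ad-GFP differ in the insert, and again 0 of the 10 were called, beside 0.00588% of all genes. Slpi alone had an unadjusted p under 0.05 in limma there (0.89 ± 0.31, unadjusted p = 0.0119, adjusted p = 0.999). Its 4 Ad-ATP12A libraries lay above its 4 Ad-GFP libraries, with within-batch differences of 0.83 and 0.95, and Slpi was the only member with such a gap, beside 0.312% of all genes with every Ad-ATP12A library above every Ad-GFP library. The 95% intervals of the difference between Ad-ATP12A and Ad-GFP ran from 0.23 to 1.55 for Slpi, from -0.48 to 1.54 for Reg3g, from -0.38 to 1.66 for Muc5ac and from -1.29 to 2.52 for Saa3, so differences of this size are not excluded by the failed test.

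Fcgbp and Reg3g differed between batches. In batch 2 against batch 1, over all groups, Fcgbp (-1.20 ± 0.36, adjusted p = 0.0332) and Reg3g (-1.02 ± 0.33, adjusted p = 0.0471) fell, 2 of 10 genes beside 2.11% of all genes called lower and 18.5% called in either direction. Without the 3 high libraries, all of batch 1, the values were -0.51 (adjusted p = 0.25) for Fcgbp and -0.56 (adjusted p = 0.392) for Reg3g, and leaving out any 1 of 8 libraries ended the call of Fcgbp (adjusted p up to 0.0717) and any 1 of 12 that of Reg3g (adjusted p up to 0.104). A test of whether the effect of a group differed between batches called none of the 10 genes in any of 5 comparisons. The same test called 0.0647% of all genes for bleomycin against control, 2.36% for Ad-GFP against control, 2.8% for Ad-ATP12A against control and none for Ad-GFP against bleomycin or Ad-ATP12A against Ad-GFP. In Ad-ATP12A against control the interaction, batch 2 minus batch 1, was -1.37 ± 0.51 for Muc5b (unadjusted p = 0.0207, adjusted p = 0.123), -1.91 ± 0.76 for Muc5ac (unadjusted p = 0.0286, adjusted p = 0.141) and -1.46 ± 0.65 for Pigr (unadjusted p = 0.0448, adjusted p = 0.176). Fitted to the 8 libraries of these groups alone, the interaction was called for Muc5ac (adjusted p = 0.0489) and Pigr (adjusted p = 0.0373). In bleomycin against control the interaction of Reg3g was 1.67 ± 0.62 (unadjusted p = 0.0218, adjusted p = 0.189).

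The 5 genes Muc5b, Muc5ac, Bpifb1, Fcgbp and Pigr had Ad-GFP b1r1, Ad-ATP12A b1r1 and Ad-ATP12A b1r2 as their 3 highest libraries, a pattern noticed in the values and given as a description. The same order was found in 280 of 17003 genes, 1.65%. Of 8 genes of the goblet cell programme 6 had it: Spdef (1.76 to 3.69 TPM in the 3 libraries and up to 1.5 in the others), Agr2 (22.46 to 33.42 and up to 11.90), Clca1 (199.81 to 374.29 and up to 111.79), Tff2 (81.17 to 129.86 and up to 30.65), Foxa3 (0.67 to 0.89 and up to 0.64) and Ern2 (0.56 to 0.75 and up to 0.31). Foxa3 and Ern2 stayed under 1 TPM in every library and are not among the 17003 genes, so this count and the 1.65% rest on unlike sets. Muc1, a mucin of the cell surface, had it (251.30 to 293.95 and up to 221.93), as had Muc20 (14.59 to 16.92 and up to 10.09), 2 of 5 cell-surface mucins. Of 6 ciliated cell genes 1 had it, the regulator Foxj1 (74.81 to 94.61 and up to 61.07), and of 6 club cell genes 1, the secretoglobin Scgb3a1 (565.28 to 863.72 and up to 544.90), while Ccdc153, Tmem212, Rsph1, Dnah5, Sec14l3, Scgb1a1, Scgb3a2, Cyp2f2, Cldn10 and Cbr2 did not. Of 10 further secreted antimicrobial genes 1 had it, Dmbt1 (1.01 to 6.80 and up to 0.89), which was not tested. No listed BPI-fold relative, acute-phase, IgA and plasma cell, cytokine, receptor and mediator, neutrophil or cartilage gene had it. These 3 libraries shared batch 1, a vector and Xist at 130.43 TPM or more, and 1 of them, Ad-GFP b1r1, was low in Scgb1a1. Xist was also high in Bleomycin b2r1 (143.83 TPM), Control b1r1 (117.65) and Ad-ATP12A b2r2 (74.42), which are not among the 3. The mean log2(TPM + 1) of the 6 ciliated cell genes was 6.80, 6.73 and 6.52 in the 3 libraries. It was at most 6.20 in the other libraries with bleomycin and up to 6.72 in control. The part of Xist status, batch, ciliated cell level or Scgb1a1 level in the pattern was not tested beyond the alternatives given.

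**Figure D3:**
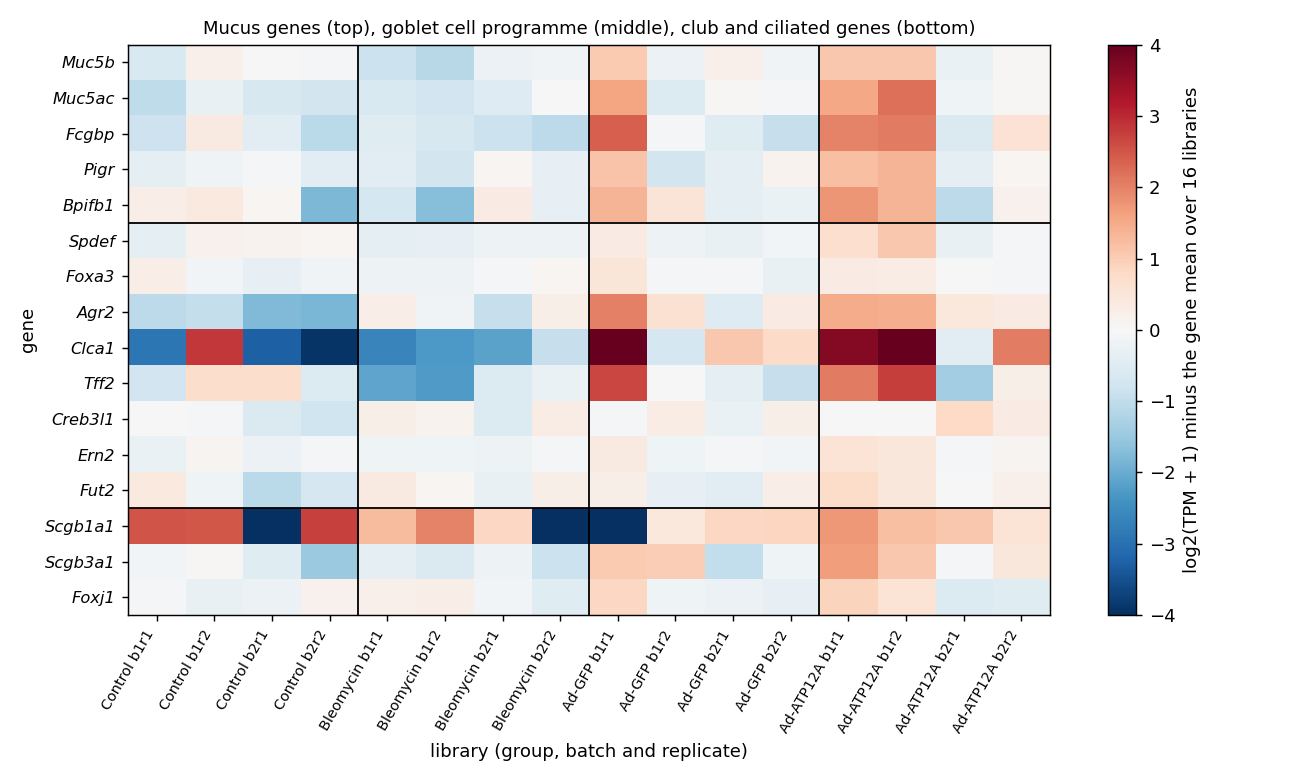
Heat map of 5 mucus genes, 8 genes of the goblet cell programme and 3 club or ciliated cell genes (rows) in 16 libraries (columns, by group). Colour is log2(TPM + 1) minus the gene's mean, with values beyond 4 or -4 drawn in the end colours. Ad-GFP b1r1, Ad-ATP12A b1r1 and Ad-ATP12A b1r2 are red for Muc5b, Muc5ac, Fcgbp, Pigr and Bpifb1, and Ad-GFP b1r1 is blue for Scgb1a1.

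Among genes of the goblet cell programme, which makes and packs mucus, Agr2 rose in all 3 groups. Agr2, needed to fold mucins in the endoplasmic reticulum, had log2 fold changes of 1.26 (adjusted p = 0.0151), 2.00 (adjusted p = 0.00193) and 2.32 (adjusted p = 0.000399) in bleomycin, Ad-GFP and Ad-ATP12A. Of the 6 tested, 1 rose in bleomycin, 1 in Ad-GFP and 3 in Ad-ATP12A, the last adding Clca1, a secreted goblet cell protease (4.28 ± 1.30, adjusted p = 0.0304), and Fut2, which adds fucose to mucins (0.73 ± 0.24, adjusted p = 0.0424). Without the 3 high libraries neither Clca1 (2.92, adjusted p = 0.193) nor Fut2 (0.69, adjusted p = 0.148) was called in Ad-ATP12A, and Agr2 was (2.09, adjusted p = 0.00161). Spdef, the goblet cell transcription factor, had log2 fold changes of -0.28, -0.08 and 0.34 (adjusted p = 0.445, 0.855 and 0.331). Clca1 was uneven within control, at 111.79 TPM in Control b1r2 and at 1.12 TPM or less in the other 3. Of 5 cell-surface mucins with values 3 were tested and none was called.

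Cytokines known to induce these defences, and the chains that carry their signal, were measured beside the members. Of 10 cytokine genes, Il13, Il17a, Il17f and Il22 stayed under 0.5 TPM in all libraries. Of the 5 tested, Tnf rose in all 3 groups (1.08, 0.85 and 1.08, adjusted p = 0.0086, 0.0344 and 0.0075), Il6 rose in bleomycin and Ad-ATP12A (1.22 and 0.93, adjusted p = 0.0083 and 0.0263), and Il1b fell in Ad-GFP (-0.91, adjusted p = 0.0484). Of 13 receptors and mediators, all tested, 4 rose and 1 fell in bleomycin, 3 rose and 1 fell in Ad-GFP, and 5 rose and 1 fell in Ad-ATP12A. Socs3, a feedback inhibitor induced by STAT3, rose by 1.67, 1.17 and 1.61 (adjusted p = 0.003, 0.0233 and 0.0031), and Stat3 by 0.39, 0.36 and 0.39 (adjusted p = 0.0146, 0.025 and 0.0117). Il6ra, a receptor chain for IL-6, fell by 0.63, 0.58 and 0.59 (adjusted p = 0.0173, 0.0321 and 0.021). Without the 3 high libraries the vector group calls were lost for Il6ra (adjusted p = 0.0723 in Ad-GFP and 0.146 in Ad-ATP12A), as were those of Il1b in Ad-GFP (adjusted p = 0.0984) and Il6 in Ad-ATP12A (adjusted p = 0.16). Of 6 club cell genes, all tested, none was called in bleomycin or Ad-GFP, and in Ad-ATP12A Scgb3a1 rose (1.28, adjusted p = 0.0118) while Cyp2f2 (-1.60, adjusted p = 0.0187) and Cbr2 (-1.57, adjusted p = 0.0433) fell. Scgb3a1 was not called without the 3 high libraries (1.07, adjusted p = 0.0723). Low values of Cyp2f2 and Cbr2 were not particular to Ad-ATP12A. Cyp2f2 lay at 1879.3 to 2971.7 TPM in control and 816.21 to 1545.3 in bleomycin, and Cbr2 at 3219.9 to 6745.9 and 1391.4 to 2851.8. Of 6 ciliated cell genes 1 was called, Sec14l3 in Ad-ATP12A (-0.76, adjusted p = 0.0374). The summed TPM of the 6 ranged from 1196.87 to 1631.69 in control and from 786.77 to 1051.61 in bleomycin. It ranged from 767.3 to 1424.25 in Ad-GFP and from 667.7 to 1244.29 in Ad-ATP12A.

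**Figure D4:**
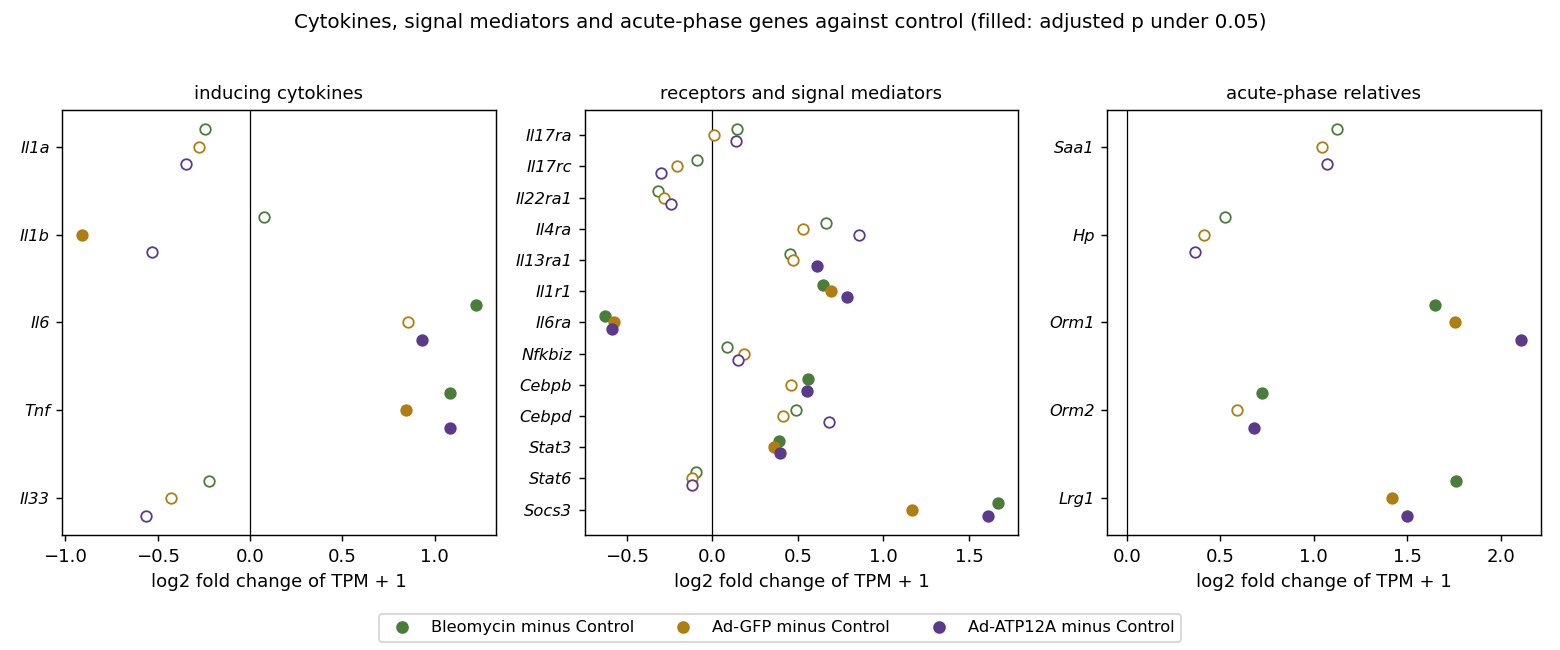
Log2 fold change of TPM + 1 against control for the tested genes of 3 lists (cytokines, receptors and mediators, acute-phase genes), by group colour; filled points have an adjusted p under 0.05. Tnf, Socs3, Stat3, Il1r1, Lrg1 and Orm1 are filled and above 0 in all 3 groups, and Il6ra is filled and under 0.

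For each member, the genes most like it were found by Pearson's r of log2(TPM + 1) over 16 libraries after removal of group and batch means, among 14247 genes with a symbol. The libraries share groups and batches, the highest r of so many is a description, and it carries no test. Tff2, a goblet cell peptide, was closest to Muc5b (r = 0.947), Fam117a to Muc5ac (0.932), Chad to Fcgbp (0.967) and Muc20 to Pigr (0.947). Next came Cd79b (0.928) and Grap2 (0.926) for Muc5b and Cd247 (0.924) for Pigr, at nearly the same r. Tff2 and Muc20 share the 3 high libraries with these members, and r was not computed without those libraries. Zbtb49 was closest to Reg3g (0.901), Atp13a1 to Ltf (0.908), Igkv10-96 to Slpi (0.891), Ccdc22 to Saa3 (0.925), Adgrg3 to Bpifa1 (0.888) and H2-Q10 to Bpifb1 (0.906). Igkv10-96 and the next for Slpi, Igkv1-88 (0.882) and Ighv1-54 (0.878), are antibody variable segments. Ad-ATP12A b2r2 had the highest Slpi (294 TPM) and the highest summed TPM of the IgA and plasma cell genes (3076.04). The r values were not computed without that library.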

How the data were processed

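RNA of 16 mouse lung libraries was taken up with a column kit and 0.6 ug of total RNA went into each library, per the labels. The authors deposited log2 values of TPM plus 1 for 53647 Ensembl identifiers. Per the submitters' processing notes the tools were STAR and RSEM and the build GRCm39 (mm39); versions, annotation and strand setting are not given in the sources used here. Turned back, the values were multiples of 0.01 TPM to within 2.3e-09 TPM. Symbols came from GENCODE M21 on GRCm38 and matched 52093 identifiers.

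The sample titles gave group, batch and replicate number. No counts were used, so no count model was fitted and depth is unknown. The test was limma 3.58.1 in R 4.3.3 with a trended prior on log2(TPM + 1), 4 group means and batch, two-sided, adjusted over the 17003 genes that reached 1 TPM in 4 or more libraries, threshold 0.05. Muc5ac passed that filter mostly through the vector groups. Interactions came from a fit with 8 group-by-batch means. Within-batch differences are of means of 2 libraries, without a test; fits to 1 batch alone were among the alternatives. On simulated data over 17003 genes the fit recovered 71 of 100 planted log2 changes of 1 and 95 of 100 of 2 in Ad-ATP12A against control. The simulated noise was normal, independent between genes and libraries, and for each gene equal in spread in all groups. Libraries that vary together in many genes, or groups of unequal spread, were not simulated. Figures were drawn with matplotlib.

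The genes described, the 12 lists beside them and the tests were chosen with earlier results of these data known. All 10 members are named, and of each list up to 4 genes with the smallest p and those needed to say which did not pass; the motifs and the genes named for the 3 high libraries were chosen after seeing the values. The alternatives tried were other pseudocounts, filters, scalings, weights, priors and covariates, single batches, a replicate block and libraries left out; leaving out 3 libraries together was chosen after seeing the data.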

Additional observations from a re-analysis of the deposited data

Results flagged for a closer look

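Bpifb1 in Control b2r2, at 11.95 TPM, lay far below the other 3 control libraries, which were at 46.45 to 57.64 TPM. Its gap to the nearest of them was 0.86 of the range of the group on the log2 scale, above Dixon's 95% critical value for 4 samples. It was the only such gap among 40 groups of 4 libraries, and chance gives about 1 in 20. The same library was the lowest of all 16 for Bpifa1 (5.09 TPM), Reg3g (13.81 TPM) and Fcgbp (1.83 TPM).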

How the results depend on the processing

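Calls of Saa3, Reg3g, Slpi and Ltf in Ad-ATP12A against control were kept when any single library was left out. So were those of Saa3 in bleomycin and in Ad-GFP against control. No value that passed the threshold in the fit reported changed sign under any alternative; Bpifb1 in bleomycin against control, not called there, was called lower in batch 1 alone (-1.53, adjusted p = 0.0286) and changed sign in batch 2 alone. Leaving out each library in turn gave 1 to 3 members past the threshold in bleomycin against control, 1 to 3 in Ad-GFP against control, 4 to 6 in Ad-ATP12A against control and 0 to 2 in batch 2 against batch 1, and for the interactions 0 to 1 in bleomycin and 0 to 3 in Ad-ATP12A against control. Batch 2 alone, with 2 libraries a group, gave 0, 0 and 3 members in the 3 comparisons with control. The shares over all genes depended on the scaling. With median-ratio scaling 1189 genes were called higher and 914 lower in batch 2 against batch 1, beside 2783 and 358 in the fit reported. In bleomycin against control 1775 were called higher and 1535 lower, beside 2247 and 954. The count of 2 between batches became 0 with no filter, without the libraries low in Scgb1a1, with a ciliated cell covariate and without the 3 high libraries, and 1 with array weights or a robust prior (Fcgbp). With an Xist term it was also 1, but the gene was Ltf (-0.77, adjusted p = 0.0498), and Fcgbp (adjusted p = 0.0586) and Reg3g (adjusted p = 0.0864) were lost. The interaction count in Ad-ATP12A against control became 2 when only the libraries compared were fitted and 2 without the libraries low in Scgb1a1; the cause was not tested.

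Values short of the threshold in the fit reported that changed sign were, in bleomycin against control, Muc5ac (-0.033) and Bpifa1 (-0.15) in batch 1 alone, Bpifb1 (0.87) and Pigr (0.12) in batch 2 alone, Fcgbp (0.32) and Pigr (0.39) with the ciliated covariate, and Slpi with median-ratio scaling (-0.0002), array weights (-0.26) and batch 1 alone (-0.38). In Ad-GFP against control they were Bpifa1 with array weights (-0.20) and the ciliated covariate (-0.28), and Muc5b (-0.014) and Pigr (-0.11) without the 3 high libraries. In Ad-ATP12A against control they were Muc5b (-0.0797) in batch 2 alone, Bpifa1 (-0.59) in batch 1 alone, and Muc5b (-0.21), Bpifb1 (-0.0704) and Pigr (-0.0424) without the 3 high libraries. Reg3g in Ad-GFP against bleomycin was -0.0231 in batch 2 alone, and Saa3 in Ad-ATP12A against Ad-GFP was -0.69 in batch 1 alone. With single libraries left out, Bpifa1 in Ad-GFP ranged from -0.43 to 1.01 and Pigr from -0.0322 to 0.64, Bpifb1 in bleomycin from -0.82 to 0.22, Muc5ac from -0.0636 to 0.40, Pigr from -0.30 to 0.11 and Slpi from -0.17 to 0.24, and Saa3 in Ad-ATP12A against Ad-GFP from -0.15 to 1.28. The cause was not tested.

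The labels do not say whether libraries with the same replicate number were paired. Over 12 pairs of groups within a batch, the difference between replicates 1 and 2 was correlated across genes. The correlation ran from -0.158 to 0.212 and 1 was over 0.1. Each group gave a single difference per batch, so this check cannot tell whether libraries were paired. A replicate block gave 2, 3 and 5 members in the 3 comparisons with control, and the call of Fcgbp in Ad-ATP12A had an adjusted p of 0.0665 under it. TPM without counts limits what can be said of low genes such as Muc5ac.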
